A study of Mus musculus with 12 samples.

Results

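The 6 transcripts Mir142hg, Gm20045, Gm26690, Mthfd2l, Fxyd4 and Gas7, out of 31053 genes listed, were selected on their measured UMI counts, because these were lower in enzymatically digested than in Dounce-homogenized brain samples. The comparison of the methods is therefore a description here and was not tested for these genes. Sorted myeloid cells came from whole brains of 12 male C57BL/6J mice at postnatal day 90, with 1 animal and 1 droplet library per sample. DNC-NONE (replicates 1, 2 and 3) was cold mechanical Dounce homogenization, and DNC-INHIB (replicates 4, 5 and 6) was the same with blockers of transcription (actinomycin D, triptolide) and of translation (anisomycin). ENZ-NONE (replicates 4, 5 and 6) was enzymatic digestion at 37 °C, and ENZ-INHIB (replicates 1, 2 and 3) was digestion with the same blockers. Cells of all 4 groups were enriched on Percoll and sorted as live CD45+/CD11b+ cells with a liberal gate, so that border macrophages and blood monocytes could enter beside microglia.

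Microglia are the resident macrophages of the brain tissue, while border macrophages line the meninges, vessels and choroid plexus, and monocytes arrive with the blood. Mir142hg is the host transcript of miR-142, a microRNA made in cells of the blood lineages, microglia included. Gm20045 and Gm26690 are long intergenic non-coding RNAs. Mthfd2l is a mitochondrial dehydrogenase and cyclohydrolase of folate one-carbon metabolism, Fxyd4 is a small membrane protein of the FXYD family that regulates the sodium-potassium pump, and Gas7 is an F-BAR protein that links membrane to actin and takes part in phagocytosis. Transcripts of so low a level are seen in few cells of a droplet experiment, so that their detection can depend on how deeply a cell was read and on which cells were captured. The samples were therefore compared by UMIs per library, by the share of cells with a UMI, by depth and by cell class.

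Positions are those of GENCODE vM21 on GRCm38, the assembly of the counts. Mir142hg (ENSMUSG00000084796) lies on the plus strand at chr11:87755577-87757270 with 2 exons, and the miR-142 hairpin lies within its intron. Gm20045 (ENSMUSG00000103983) is a transcript of 1 exon on the minus strand at chr1:171320601-171326177. Gm26690 (ENSMUSG00000097751) has 2 exons on the minus strand at chr7:127982570-127984881. Mthfd2l (ENSMUSG00000029376) is at chr5:90931117-91021368 (plus), Fxyd4 (ENSMUSG00000004988) at chr6:117933559-117937692 (minus) and Gas7 (ENSMUSG00000033066) at chr11:67455437-67688990 (plus).

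The miRNA products of the Mir142hg locus are shown because they are what this host transcript is known for, although the kit, which reads 3' ends of polyadenylated RNA, does not count mature miRNAs. RefSeq (GRCm38.p6) places the hairpin at chr11:87756864-87756927. It is given here with the mature miRNAs in capitals, and each mature miRNA with its seed, bases 2 to 8, in capitals.
miR-142 hairpin: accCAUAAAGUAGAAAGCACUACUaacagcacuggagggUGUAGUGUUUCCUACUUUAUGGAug
mmu-miR-142a-5p: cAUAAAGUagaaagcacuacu
mmu-miR-142a-3p: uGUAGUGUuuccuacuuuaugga
Neither seed is shared with another of the 1679 mature mouse miRNAs in the RefSeq table.

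The last 120 bases of the 3 non-coding transcripts are shown because reads of a 3' kit come from this end. The polyadenylation signal AATAAA, where it occurs in the last 50 bases of the sense strand, is in capitals.
Mir142hg (chr11:87757151-87757270, plus): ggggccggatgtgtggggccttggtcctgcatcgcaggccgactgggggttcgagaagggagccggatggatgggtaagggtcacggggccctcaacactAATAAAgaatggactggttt
Gm20045 (chr1:171320601-171320720, minus): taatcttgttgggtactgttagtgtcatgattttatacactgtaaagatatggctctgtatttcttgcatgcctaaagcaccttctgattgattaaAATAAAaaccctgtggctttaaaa
Gm26690 (chr7:127982570-127982689, minus): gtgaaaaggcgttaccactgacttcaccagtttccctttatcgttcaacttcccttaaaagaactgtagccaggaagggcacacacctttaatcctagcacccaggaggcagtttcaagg
The signal ends 14 bases before the annotated end of Mir142hg and 18 bases before that of Gm20045, and its letters are not in this window of Gm26690. Of the 163 long intergenic non-coding RNAs tested, 57.7% hold these letters in the last 50 bases of at least 1 annotated transcript.

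RefSeq gave promoters for 3 of the 6 genes, each from 250 bases before to 50 bases after a start, and only these could be shown. Capitals mark GAGGAA, the core of PU.1-type ETS sites, on either strand (TTCCTC on the other strand).
Gm20045 (chr1:171327265-171327564, minus): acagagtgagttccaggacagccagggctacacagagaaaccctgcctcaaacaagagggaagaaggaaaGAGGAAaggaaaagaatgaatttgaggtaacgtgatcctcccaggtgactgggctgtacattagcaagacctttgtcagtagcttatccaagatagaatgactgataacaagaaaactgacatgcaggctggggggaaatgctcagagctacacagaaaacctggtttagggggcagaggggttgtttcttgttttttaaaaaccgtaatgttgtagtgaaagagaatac
Mthfd2l (chr5:90930946-90931245, plus): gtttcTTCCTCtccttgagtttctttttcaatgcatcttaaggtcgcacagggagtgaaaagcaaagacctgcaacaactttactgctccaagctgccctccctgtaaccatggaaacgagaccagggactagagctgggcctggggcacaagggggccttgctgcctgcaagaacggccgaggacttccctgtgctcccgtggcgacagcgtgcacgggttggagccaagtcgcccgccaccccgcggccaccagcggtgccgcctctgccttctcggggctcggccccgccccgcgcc
Fxyd4 (chr6:117937286-117937585, minus): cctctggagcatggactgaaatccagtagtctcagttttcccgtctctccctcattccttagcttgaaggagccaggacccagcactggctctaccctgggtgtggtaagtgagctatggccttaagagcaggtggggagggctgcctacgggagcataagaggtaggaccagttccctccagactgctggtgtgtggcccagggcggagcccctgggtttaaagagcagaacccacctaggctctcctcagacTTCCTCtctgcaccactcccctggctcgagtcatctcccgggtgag
Each promoter holds GAGGAA on a strand, as do 28.3% of the 32851 promoters in the table. Neither TATAAA nor CCAAT is in these windows on either strand, against 13.6% and 37.4% of all promoters. The RefSeq start lies 1137 bases from the GENCODE start for Gm20045, 357 bases for Fxyd4 and 79 bases for Mthfd2l. The Fxyd4 window lies wholly within the GENCODE gene.

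Of 28426 deposited cells, 18826 were kept (853 to 2185 per library), with 1059783 to 3233159 UMIs per library. The median depth of a kept cell was 1153 to 1408 UMIs in Dounce and 1291 to 1572 in digested libraries. Mitochondrial, ribosomal and Malat1 shares overlapped between the methods. Some barcode sequences occurred in several libraries (236 of 18590 kept sequences, each in at most 2 libraries). Levels are in CPM, the UMIs of a gene per 1000000 UMIs of the kept cells of a library. All 10 microglia markers were detected, and they summed to 33966 to 39806 CPM. ENZ-NONE replicate 6 stood apart from the other libraries, since 719 of the 1006 cells of a microglia-like cluster led by Adamts1, Ccl12 and Ier2, genes of cell activation, came from it, and 165 came from DNC-NONE replicate 1. Results that rest on ENZ-NONE replicate 6 are given with and without it.

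All 6 transcripts were rare. The kept cells held 1508 UMIs of them, from 139 for Fxyd4 to 455 for Gm20045, and 7.28% of cells had a UMI of any. UMIs of 2 of them were seen in 56 cells, and UMIs of 3 or more in 1 cell. Their mean levels lay between the 6.92th percentile (Fxyd4) and the 33.7th percentile (Gm20045) of the 9882 genes tested. Counting error is therefore a large part of every value below. In bulk sums of cells, fewer cells with a transcript and less of it per cell cannot be told apart.

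Mir142hg, the miR-142 host, had the widest gap between the methods among the 6 as a ratio of mean levels. It gave 25, 14 and 22 UMIs in DNC-NONE and 37, 41 and 46 in DNC-INHIB, against 3, 1 and 13 in ENZ-NONE and 9, 5 and 4 in ENZ-INHIB. In CPM these were 10.0, 13.2 and 12.2, then 17.6, 15.6 and 14.2, against 1.38, 0.651 and 4.76, then 4.85, 1.88 and 1.56. Every digested library was below every Dounce library, and the mean level over Dounce libraries was 5.49 times that over digested ones. ENZ-NONE replicate 6 and ENZ-INHIB replicate 1 were the highest of the digested libraries.

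Gm20045, the most abundant of the 6, gave 52, 23 and 40 UMIs in DNC-NONE, 58, 80 and 82 UMIs in DNC-INHIB, 9, 14 and 22 in ENZ-NONE and 22, 31 and 22 in ENZ-INHIB. Its level was 20.8, 21.7 and 22.2 CPM in DNC-NONE, 27.6, 30.4 and 25.4 CPM in DNC-INHIB, 4.13, 9.12 and 8.06 in ENZ-NONE and 11.9, 11.7 and 8.58 in ENZ-INHIB. The methods did not overlap, and the group means were 21.6 and 27.8 CPM in Dounce and 7.10 and 10.7 CPM in digested libraries, the second of each with inhibitors. Gm26690 gave 43, 15 and 20 UMIs in DNC-NONE, 27, 31 and 47 UMIs in DNC-INHIB, 6, 7 and 21 in ENZ-NONE and 7, 4 and 9 in ENZ-INHIB. Its 6 digested libraries (1.51 to 7.69 CPM) were all below the 6 Dounce libraries (11.1 to 17.2 CPM), with ENZ-NONE replicate 6 the nearest.

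Mthfd2l, the folate enzyme, gave 31, 11 and 26 UMIs in DNC-NONE, 36, 43 and 39 UMIs in DNC-INHIB, 11, 14 and 21 in ENZ-NONE and 11, 18 and 12 in ENZ-INHIB. Its gap in CPM was the narrowest of those that did not overlap, with 10.4 CPM in the lowest Dounce library (DNC-NONE replicate 2) and 9.12 CPM in the highest digested one (ENZ-NONE replicate 5). Fxyd4, the FXYD protein, gave 26, 6 and 12 UMIs in DNC-NONE, 17, 19 and 25 UMIs in DNC-INHIB, 4, 6 and 9 in ENZ-NONE and 5 in each ENZ-INHIB library. Its levels ran from 5.66 to 10.4 CPM in Dounce and from 1.84 to 3.91 CPM in digested libraries.

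Gas7 went another way. It gave 49, 23 and 14 UMIs in DNC-NONE, 5, 15 and 20 UMIs in DNC-INHIB, 8, 4 and 22 in ENZ-NONE and 8, 10 and 6 in ENZ-INHIB, which is 19.6, 21.7 and 7.77 CPM, 2.38, 5.70 and 6.19 CPM, 3.67, 2.61 and 8.06 CPM and 4.31, 3.77 and 2.34 CPM. High values were limited to DNC-NONE replicates 1 and 2, and the methods overlapped, with DNC-INHIB replicate 4 among the lowest libraries. The other 5 transcripts each had all digested libraries below all Dounce libraries, as did 1.21% of all genes tested (120 of 9882). The choice of members used this contrast, so nothing is read from that count, nor from the similar counts below.

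**Figure D1:**
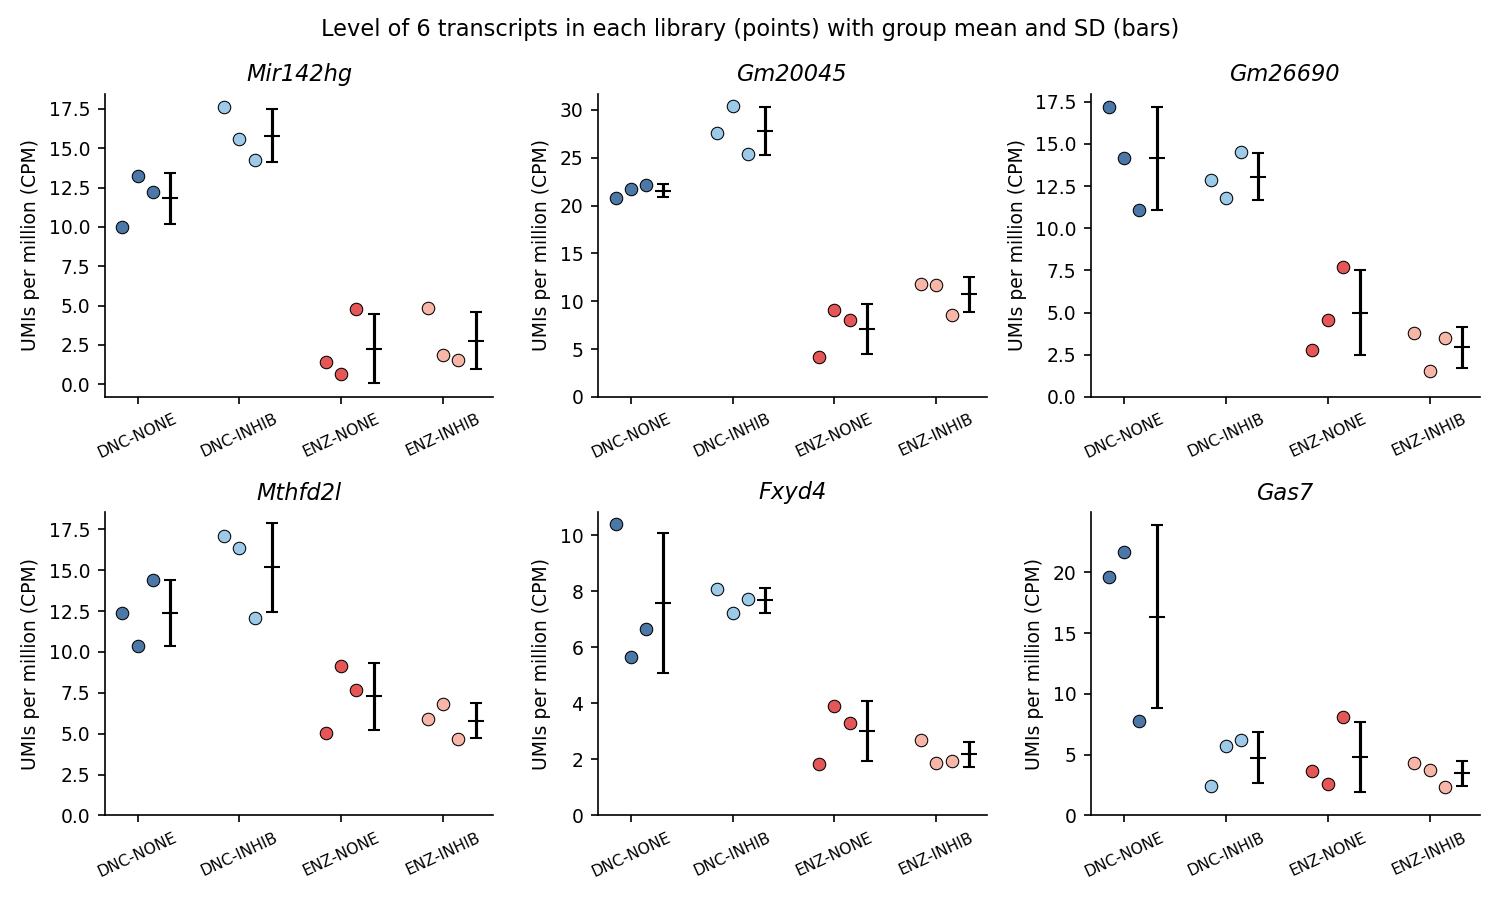
Level of each transcript in the 12 libraries, in UMIs per 1000000 UMIs of kept cells (CPM, y axis), by group (x axis), where points are libraries and bars are the group mean and SD (n = 3). The digested libraries sit below the Dounce libraries for 5 transcripts, while Gas7 is high mainly in 2 DNC-NONE libraries at 19.6 and 21.7 CPM.

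In an edgeR quasi-likelihood fit across all genes, the log2 fold changes of ENZ-NONE against DNC-NONE were -2.08 ± 0.42 (SE) for Mir142hg, -1.57 ± 0.25 for Gm20045, -1.40 ± 0.33 for Gm26690, -0.77 ± 0.28 for Mthfd2l, -1.38 ± 0.39 for Fxyd4 and -1.58 ± 0.41 for Gas7. With inhibitors in both arms, those of ENZ-INHIB against DNC-INHIB were -2.57 ± 0.38, -1.37 ± 0.20, -2.18 ± 0.35, -1.35 ± 0.26, -1.81 ± 0.39 and -0.53 ± 0.50 in the same order. No p is given for these values, since both comparisons entered the choice of the genes. Without ENZ-NONE replicate 6 the first fold changes were -3.33 for Mir142hg and -2.27 for Gas7.

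Whether the inhibitors themselves moved these transcripts was not used in choosing them, although the same libraries were, and this was tested. A gene was called at an adjusted p under 0.05 and an absolute log2 fold change over 0.58. Within digested libraries none of the 6 was called between ENZ-NONE and ENZ-INHIB, where 0.293% of all genes were called. Mir142hg differed by 0.05 ± 0.53 (log2 ± SE, ENZ-NONE minus ENZ-INHIB), Mthfd2l by 0.34 ± 0.31, Fxyd4 by 0.50 ± 0.47 and Gas7 by 0.63 ± 0.51. Gm26690 differed by 0.90 ± 0.43 and Gm20045 by -0.56 ± 0.27, each with an adjusted p of 0.993 (edgeR quasi-likelihood). Without ENZ-NONE replicate 6 the value of Mir142hg turned to -1.20 and that of Gas7 to -0.066, and that of Gm26690 was 0.32, so the sign of the first 2 rested on this library.

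Within Dounce libraries Gas7 was the exception in size. Its level was 16.4 ± 7.51 CPM (SD, n = 3) in DNC-NONE and 4.76 ± 2.07 CPM (SD, n = 3) in DNC-INHIB, a log2 difference of 1.68 ± 0.40 (SE) that was not called (adjusted p 0.999, edgeR quasi-likelihood). The groups did not overlap, with the lowest DNC-NONE library at 7.77 and the highest DNC-INHIB library at 6.19 CPM. The share of all genes apart in this way was not computed, so nothing is read from it. The other 5 differed by -0.44 to 0.13 on the log2 scale, with standard errors of 0.19 to 0.32. In this comparison 0% of all genes were called (435 at an unadjusted p under 0.05, and 1 by DESeq2). With no filter on low counts Gas7 itself was called (log2 difference 1.66 ± 0.32, adjusted p 0.000565, edgeR quasi-likelihood). It was then among 19 genes called of 16399 tested.

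The change of the digestion difference with inhibitors, an interaction term over the comparisons that entered the choice, was not called for any of the 6, against 0.0607% of all genes. It was -1.05 ± 0.67 (log2 ± SE) for Gas7 and 0.77 ± 0.51 for Gm26690. The difference in Gas7 was thus -1.58 without and -0.53 with inhibitors, but these were not shown to differ (adjusted p of 0.9996 for all 6, edgeR quasi-likelihood).

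The share of cells with a UMI at equal depth was lower in the digested groups for 5 transcripts, with and without inhibitors, but not for Gas7. After thinning each kept cell to 1000 UMIs, Gm20045 was seen in 2.23% ± 0.225 (SD, n = 3) of DNC-NONE cells, 2.84% ± 0.394 of DNC-INHIB cells, 0.642% ± 0.367 of ENZ-NONE cells and 1.06% ± 0.294 of ENZ-INHIB cells. Mir142hg was seen in 1.19% ± 0.234 and 1.37% ± 0.297 of cells in the Dounce groups and in 0.225% ± 0.203 and 0.339% ± 0.218 in the digested groups. The lowest library was ENZ-NONE replicate 5 with 1 cell of 1118 (0.0894%, 95% Clopper-Pearson interval 0.00226 to 0.497). Shares of Mir142hg, Gm20045, Gm26690 and Mthfd2l did not overlap between the methods after thinning, as was so for 1% of all genes tested (99 of 9882).

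Fxyd4 overlapped once cells were thinned, since its lowest Dounce library (0.469%, DNC-NONE replicate 2) fell below ENZ-NONE replicate 5 (0.537%). For Gas7 the thinned shares were 0.996% ± 0.397 in DNC-NONE, 0.282% ± 0.201 in DNC-INHIB, 0.327% ± 0.241 in ENZ-NONE and 0.394% ± 0.178 in ENZ-INHIB (SD, n = 3), so that the mean of DNC-NONE was the highest, ENZ-INHIB was above DNC-INHIB and the libraries of the methods overlapped. Without thinning Gas7 stood at 0.509% in DNC-INHIB and 0.501% in ENZ-INHIB. For the other 5 the shares without thinning were larger and again lower in the digested groups, such as 3.16% against 1.31% for Gm20045 and 1.83% against 0.373% for Mir142hg (means of 6 libraries). Cells with a UMI nearly always had 1. At most 17 cells had more for any transcript but Gas7, of which 31 of 140 positive cells had at least 2 and at most 5.

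**Figure D2:**
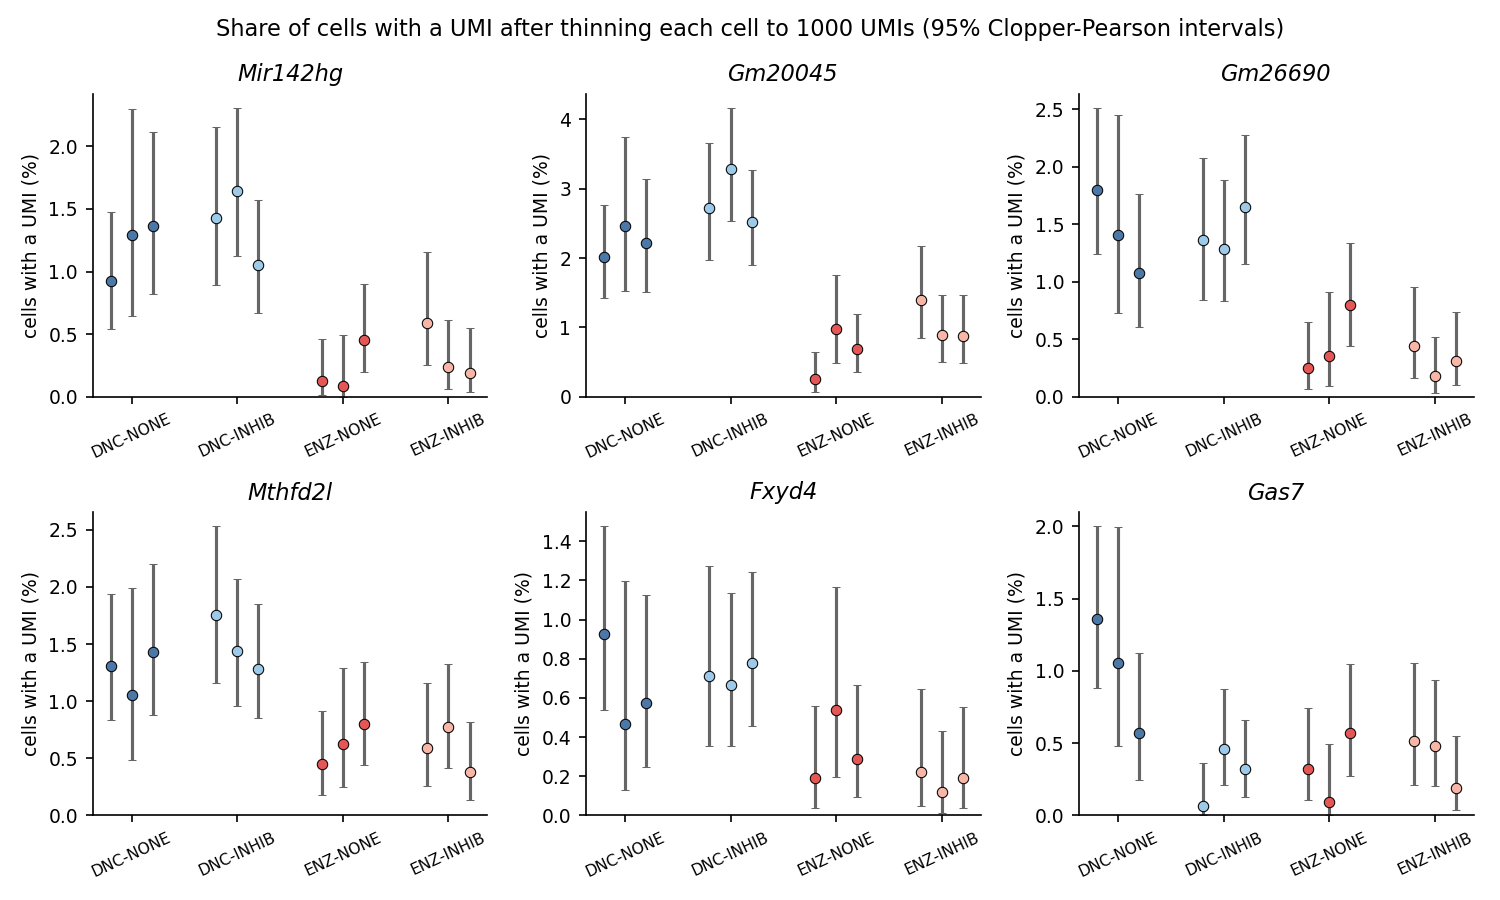
Share of kept cells with at least 1 UMI of each transcript (y axis, percent) after thinning every cell to 1000 UMIs, by group (x axis), where points are libraries and bars are exact 95% intervals that cover counting error only. Shares of Mir142hg, Gm20045, Gm26690 and Mthfd2l do not overlap between Dounce and digested libraries.

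Depth was examined within each library, by splitting its kept cells at their median UMI count and comparing the CPM of the shallower with that of the deeper cells. An exact sign-flip permutation test over the 12 libraries was run for each of the 6 transcripts (two-sided, smallest possible p 0.000488, p not adjusted). Gas7 was lower in shallower cells, at 3.17 ± 2.25 against 10.4 ± 10.7 CPM (SD, n = 12), in 10 of 12 libraries (exact p 0.0166). In the 6 Dounce libraries it gave 13 UMIs in shallower and 113 in deeper cells. Within microglia-like cells alone the Gas7 values were 1.25 and 1.42 CPM (exact sign-flip p 0.794), from 12 and 21 UMIs. So few UMIs cannot show whether Gas7 depended on depth there.

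The non-coding RNAs Gm26690 and Gm20045 leaned the other way. Gm26690 was higher in shallower cells in 10 of 12 libraries, at 10.0 against 7.91 CPM (exact p 0.0278), and Gm20045 in 9 of 12, at 20.04 against 14.4 CPM (exact p 0.0459). The call of Gm20045 was lost without any of 9 of the 12 libraries (exact p 0.0537 to 0.0918; it held without DNC-INHIB replicate 4, ENZ-NONE replicate 4 or ENZ-INHIB replicate 3). That of Gm26690 was lost without DNC-NONE replicate 1, DNC-INHIB replicate 5 or ENZ-NONE replicate 5 or 6 (exact p 0.0508 to 0.0557), and in microglia-like cells alone (exact p 0.103). Mthfd2l (11.6 against 9.17 CPM, exact p 0.0786), Fxyd4 (4.24 against 5.75 CPM, exact p 0.104) and Mir142hg (8.56 against 7.89 CPM, exact p 0.384) did not pass, although Mthfd2l did without DNC-NONE replicate 3 (exact p 0.0225) or ENZ-INHIB replicate 1 (exact p 0.0312). In all 6 Dounce libraries Fxyd4 was higher in the deeper cells, against 3 of 6 digested ones.

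Pooled over the 6 libraries of a method, Mir142hg stayed apart at each depth. In cells of 1000 to under 1200 UMIs it was at 14.8 CPM (95% Poisson interval 11.3 to 19.2) in Dounce and 3.89 CPM (1.78 to 7.39) in digested libraries, and in cells of at least 2000 UMIs at 17.3 CPM (10.7 to 26.4) and 1.09 CPM (0.132 to 3.95). Gm20045 was likewise apart in every bin, from 28.6 against 11.7 CPM in the shallowest kept bin to 19.8 against 6.02 CPM in the deepest. Fxyd4 in Dounce libraries was highest in the deepest bin, at 18.1 CPM (11.3 to 27.4) against 5.88 CPM (3.73 to 8.83) in the shallowest kept bin, while the same bins of digested libraries held 1 and 7 UMIs. Gas7 was nearly level between the methods below 1500 UMIs, with 14 and 6 UMIs at 1000 to under 1200 and 11 and 16 UMIs at 1200 to under 1500. Its pooled level was apart in the deepest bin, at 48.6 CPM (37.0 to 62.6) in Dounce and 12.0 CPM (7.54 to 18.2) in digested libraries. These bins were not split by library, and the intervals do not cover differences between libraries. Among cells above the median depth of their library, DNC-NONE replicates 1 and 2 held 47 and 19 of 113 Dounce Gas7 UMIs. ENZ-NONE replicate 6 held 20 of 39 digested ones, and the bins were not computed without it.

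**Figure D3:**
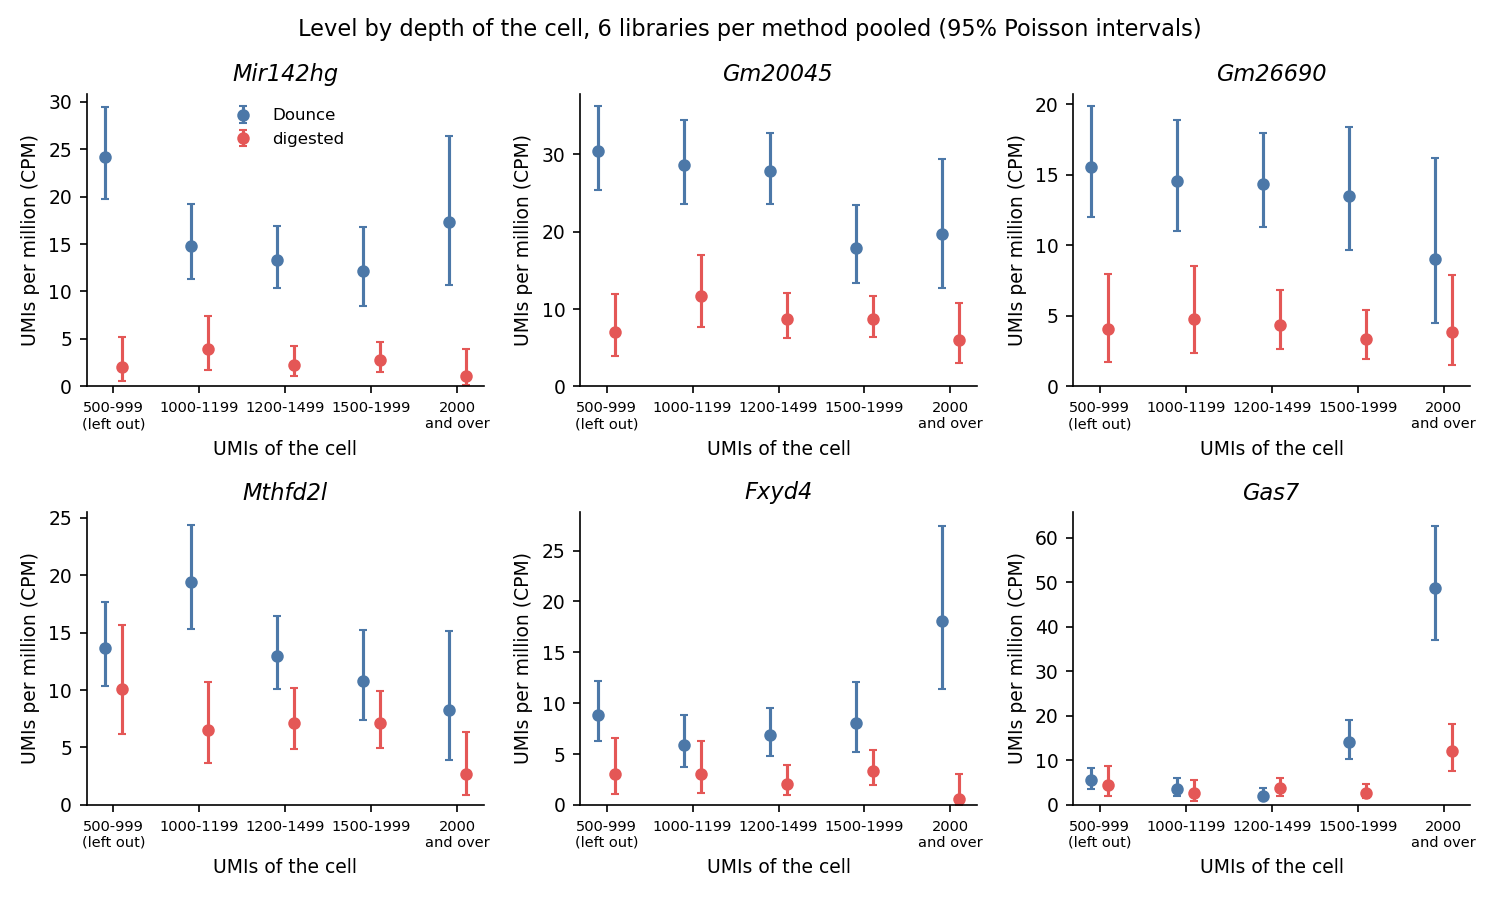
Level of each transcript (CPM, y axis) by the number of UMIs of the cell (x axis), pooled over the 6 Dounce (blue) and 6 digested (red) libraries with exact 95% Poisson intervals, which cover counting error only. The bin of 500 to under 1000 UMIs holds barcodes that the cell filter left out. The pooled level of Gas7 differs between the methods mainly in the 2 deepest bins, which were not split by library.

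Barcodes of 500 to under 1000 UMIs, which the cell filter had left out, were read separately. There were 5114 in Dounce and 2429 in digested libraries. Mir142hg had 101 UMIs in the former and 4 in the latter, or 24.2 CPM (95% Poisson interval 19.7 to 29.4) against 2.02 CPM (0.551 to 5.18). These 4 UMIs all came from ENZ-INHIB replicate 1, and the other 5 digested libraries had none, a count of 0 that allows up to 3 UMIs each as a one-sided limit. Gm20045 was at 30.4 CPM (25.4 to 36.2) against 7.08 CPM (3.87 to 11.9), Gm26690 at 15.6 against 4.05 CPM and Fxyd4 at 8.86 against 3.04 CPM. The gap was smaller for Mthfd2l (13.6 against 10.1 CPM, with overlapping intervals) and Gas7 (5.51 against 4.55 CPM).

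Cell identity was taken from clusters made without the 6 genes. They gave 17988 microglia-like cells and 318 border macrophage-like cells. The latter fell into a cluster led by H2-Eb1, H2-Aa and Cd74, genes of antigen presentation, and a smaller one with Pf4 and Mrc1. The first held 216 cells and had 2 border macrophage markers among its top 10 genes. Its border, monocyte and dendritic markers were at about 9.18, 8.28 and 6.78 times their level in other kept cells. The second held 102 cells and had 7 such markers, at about 41.4, 0.084 and 0.988 times. The name is therefore less certain for the first. A cluster of 132 cells was led by Ngp, S100a8 and Camp. It had 3 monocyte and 2 neutrophil markers among its top 10 genes, and Ngp, Camp and Ltf, which are neutrophil granule genes on neither list, so it was left without a cell type name and is called Ngp-led. Border macrophage-like and Ngp-led cells were summed, and the sum is called border/granule cells. The other kept cells were 299 interferon-responsive-like, 31 proliferating-like and 58 without a name, of which 57 formed a cluster led by Cd209a. Border/granule cells were deeper (median 1608 UMIs) than microglia-like cells (median 1333 UMIs).

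Most Gas7 UMIs came from the border/granule cells. These made up 2.39% of kept cells and held 142 of its 184 UMIs (77.2%), and the microglia-like cells, 95.5% of the total, held 33 (17.9%). Its level was 153 ± 76.2 CPM (SD, n = 12) in border/granule and 1.35 ± 0.635 CPM in microglia-like cells, higher in border/granule cells of 12 of 12 libraries (exact sign-flip p 0.000488, the smallest possible). In border macrophage-like cells alone it was 124 ± 56.8 CPM, again higher in 12 of 12 libraries (exact p 0.000488). Pooled over libraries, Ngp-led cells stood at 273 CPM (95% Poisson interval 212 to 344) and border macrophage-like cells at 134 CPM (105 to 169), and no UMI was seen in 299 interferon-responsive-like cells, while the 58 unnamed cells held 9 (4.89%). After thinning, 16.4% of border/granule cells (13.1 to 20.2) and 0.1001% of microglia-like cells (0.0593 to 0.158) had a Gas7 UMI. Free RNA can give such single UMIs, and no class is known to lack the other 5 transcripts, so no background share was taken for them.

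The other 5 transcripts came mainly from microglia-like cells, with 88.2% of the UMIs of Mir142hg, 96.5% of Gm20045, 96.6% of Gm26690, 93.8% of Mthfd2l and 93.5% of Fxyd4. Mir142hg was higher in border/granule cells, at 18.7 ± 18.8 against 7.70 ± 5.95 CPM (SD, n = 12; exact p 0.0229), and this rested on the Dounce libraries, where 6 of 6 were higher, while 2 of 6 digested ones were. Against border macrophage-like cells alone it did not pass (19.1 CPM, exact p 0.0640). Gm20045 (9.63 against 17.2 CPM, exact p 0.110), Gm26690 (5.05 against 9.10 CPM, exact p 0.106), Mthfd2l (16.5 against 10.1 CPM, exact p 0.0908) and Fxyd4 (3.84 against 5.12 CPM, exact p 0.684) did not pass. Single libraries decided this. Without DNC-INHIB replicate 4, Gm20045 (exact sign-flip p 0.00195) and Gm26690 (exact sign-flip p 0.00293) passed with lower values in border/granule cells. So did Fxyd4 without DNC-NONE replicate 1 (exact sign-flip p 0.0234). Mthfd2l was higher there without ENZ-NONE replicate 5 (exact sign-flip p 0.0449). No Fxyd4 UMI was seen in border macrophage-like cells of any of the 12 libraries. Each difference there was therefore negative whatever the true level, and the exact sign-flip p of 0.000488 cannot show a lower level. The border/granule sums hold only 4 to 18 UMIs per transcript. In digested libraries Gm20045, Gm26690 and Fxyd4 had no UMI in border/granule cells. A library without such a UMI gives a negative difference whatever the true level. The p values of these transcripts without single libraries therefore cannot show a lower level. After thinning, shares in border/granule against microglia-like cells were 0.889% and 1.77% for Gm20045 and 0.667% and 0.962% for Gm26690. For Fxyd4 they were 0.667% and 0.478%.

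**Figure D4:**
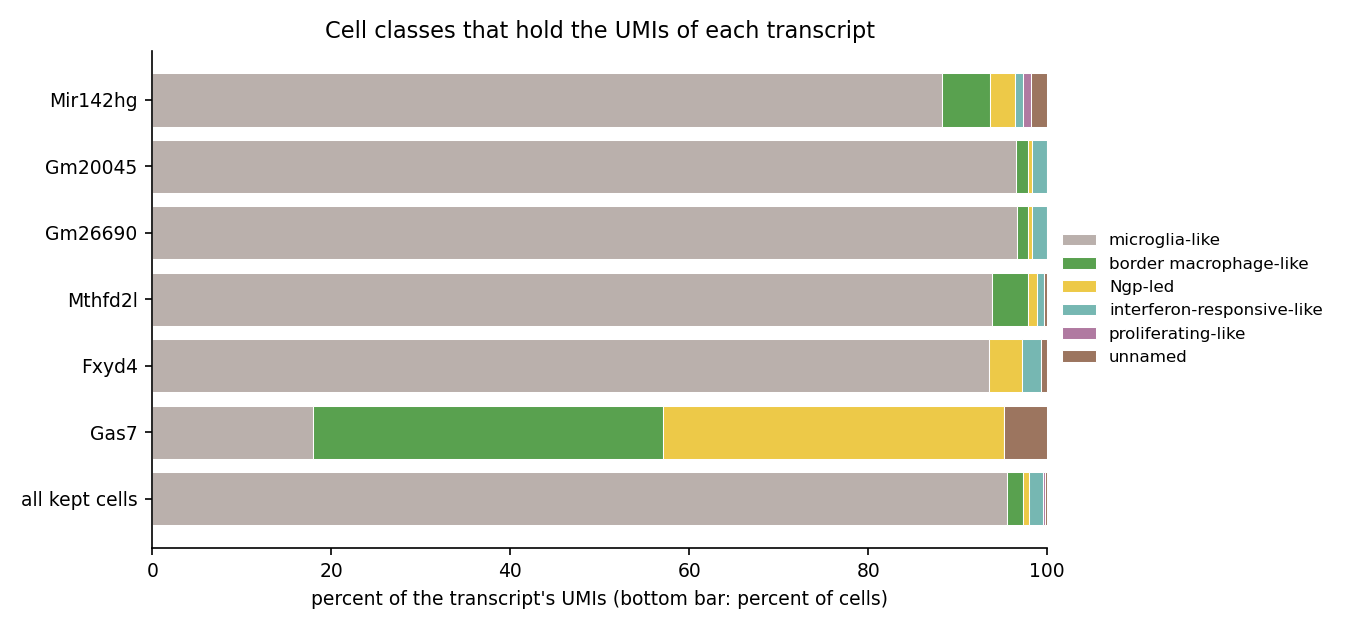
Share of each transcript's UMIs (x axis, percent) that came from each cell class, over all kept cells of the 12 libraries, with the share of cells per class in the bottom bar. Gas7 alone draws most of its UMIs, 77.2%, from border macrophage-like and Ngp-led cells.

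Within microglia-like cells the levels of the methods again did not overlap for 5 transcripts, and 1.2% of all genes tested (119 of 9882) had all digested below all Dounce libraries there. Mir142hg ranged from 7.79 to 17.4 CPM in Dounce and from 0.681 to 4.71 CPM in digested libraries, Gm20045 from 21.2 to 32.2 and from 4.26 to 11.8 CPM, and Gm26690 from 11.7 to 17.7 and from 1.18 to 8.24 CPM. Mthfd2l (10.5 to 16.9 against 4.44 to 9.53 CPM) and Fxyd4 (6.31 to 9.08 against 1.89 to 4.09 CPM) were apart as well. Their log2 fold changes in microglia-like cells alone were -1.95 (Mir142hg), -1.54 (Gm20045), -1.41 (Gm26690), -0.73 (Mthfd2l) and -1.23 (Fxyd4) without inhibitors, and -2.51, -1.42, -2.20, -1.38 and -1.76 with them. Gas7 overlapped, with 0.498 to 2.16 CPM from 20 UMIs in Dounce and 0.392 to 1.89 CPM from 13 UMIs in digested libraries, and it fell below the filter on low counts, so it had no fold change there.

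In border/granule cells Gas7 was at 326, 261 and 157 CPM in DNC-NONE, 85.4, 121 and 169 CPM in DNC-INHIB, 96.9, 73.2 and 184 CPM in ENZ-NONE and 125, 155 and 83.1 CPM in ENZ-INHIB. The 2 libraries with the highest level of all cells, DNC-NONE replicates 1 and 2, were also the highest here, and the rest overlapped across groups. These libraries also held the most border/granule cells per kept cell, 3.59% and 5.63%, against 1.36% to 3.15% in the other 10. DNC-NONE replicate 1 held 33 Ngp-led cells with 30 of its 49 Gas7 UMIs, and in DNC-NONE replicate 2 it was 42 border macrophage-like cells that held 15 of 23.

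Over the 12 libraries the level of Gas7 in all cells was higher where the share of border/granule cells was higher (Pearson r 0.93, Spearman rho 0.923), and r was 0.88 without DNC-NONE replicates 1 and 2, the 2 libraries farthest from the median share. As a description, r was 0.93 (rho 1) among the 6 Dounce and 0.93 (rho 0.657) among the 6 digested libraries. The value among digested libraries rested on ENZ-NONE replicate 6, and r was 0.52 in the 5 others. The points share their library totals, and the border/granule cells are part of the cells in which Gas7 was counted. For the other 5 transcripts r over all libraries was between 0.04 and 0.52. Among digested libraries r was 0.86 for Mir142hg and 0.81 for Gm26690, and without ENZ-NONE replicate 6 it was 0.96 and 0.094. Among Dounce libraries r was -0.56 for Mir142hg, -0.69 for Gm20045 and -0.85 for Mthfd2l.

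**Figure D5:**
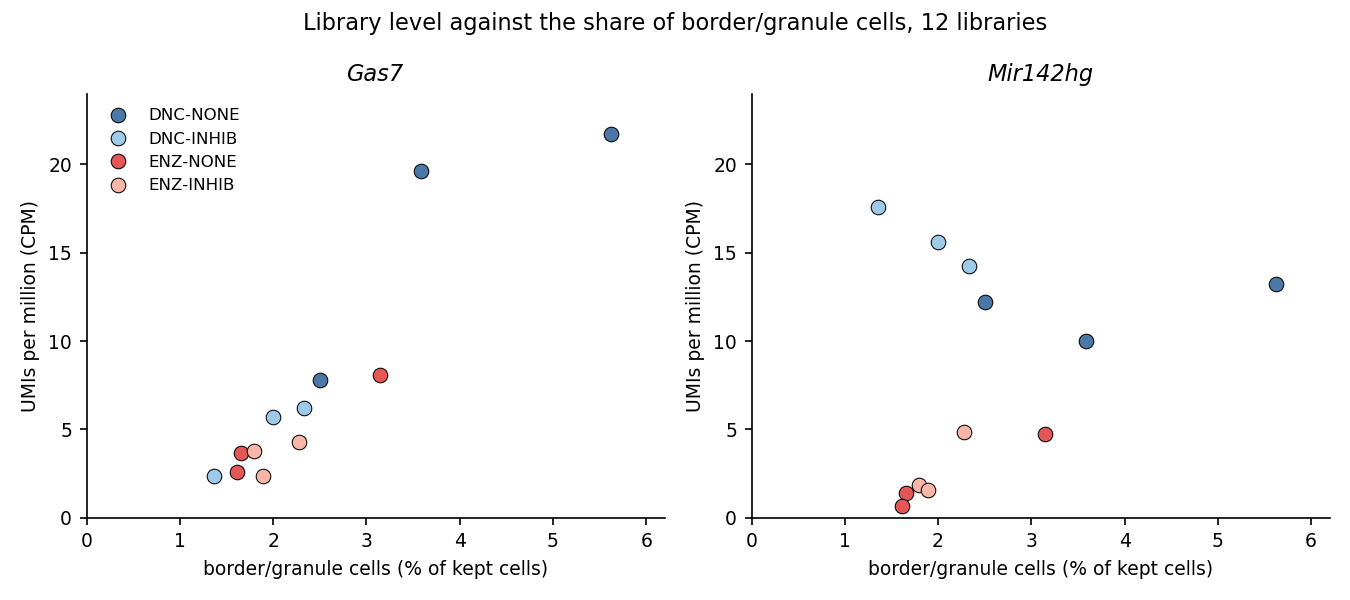
Level of Gas7 (left) and Mir142hg (right) in all kept cells (CPM, y axis) against the share of border/granule cells (x axis, percent of kept cells), where each point is 1 of 12 libraries and color marks the group. Gas7 is highest in the 2 libraries with the largest share, and Mir142hg is lower in every digested than in any Dounce library.

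Markers of other cells moved with the methods in part. The summed level of 6 proliferation markers was 13.9 to 46.6 CPM in Dounce and 5.05 to 10.8 CPM in digested libraries, without overlap. Of these markers Top2a and Birc5 were called lower in ENZ-NONE than in DNC-NONE, where 0.202% of all genes were. Neither was called between ENZ-INHIB and DNC-INHIB (log2 -1.80 ± 0.76 and -0.98 ± 0.58, SE), and Cdk1 was called in neither comparison. All 9 border macrophage markers were detected, summing to 273 to 528 CPM in Dounce and 213 to 309 CPM in digested libraries. Stab1 made up much of this sum, with TMM-normalized means of 204 and 187 CPM. The other border markers each had a lower mean in digested libraries, such as Mrc1 (31.4 against 16.4 CPM) and F13a1 (35.3 against 16.1 CPM). None of those tested was called between the methods. All 8 monocyte markers were detected, at 45.2 to 330 and 29.2 to 219 CPM. The 6 neutrophil markers ranged from 5.70 to 2091 CPM and from 1.56 to 268 CPM, and the 5 dendritic markers from 30.03 to 85.6 and from 3.91 to 36.1 CPM. The part of these cells in the levels of the 6 transcripts was not tested beyond the class sums above, but the proliferating-like cells held at most 2 UMIs of any of them. Interferon-responsive markers (7 of 7 detected; 72.2 to 118 against 46.8 to 91.0 CPM), lymphocyte markers (7 of 7; 0 to 3.89 against 0 to 20.1 CPM), neuron markers (5 of 5; 1.55 to 6.61 against 0 to 4.59 CPM) and astrocyte markers (6 of 6; 162 to 247 against 147 to 229 CPM) overlapped. So did those of oligodendrocytes (5 of 6, Pdgfra at 0; 14.8 to 34.0 against 9.05 to 15.6 CPM), vessels (3 of 5, Rgs5 and Vtn at 0; 20.01 to 34.9 against 20.1 to 30.01 CPM), choroid plexus (3 of 3; 0 to 0.951 against 0.459 to 3.91 CPM) and red blood cells (5 of 5; 0 to 2.22 against 0 to 2.34 CPM). Slc1a3 alone made up nearly all of the astrocyte sum, with a mean of 193 CPM. The next astrocyte marker, Aldoc, was at 1.35 CPM.

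The labels place the libraries in 2 batches of 6, with 3 Dounce and 3 digested libraries each. In both batches, with and without inhibitors, the mean of the digested libraries was below that of the Dounce libraries for Mir142hg, Gm20045, Gm26690, Mthfd2l and Fxyd4. Every digested library was below every Dounce library for these transcripts, so any split of the libraries must give this order. It is therefore a description only and no further evidence. The Dounce mean over the digested mean was 5.93 in batch 1 and 5.12 in batch 2 for Mir142hg, and 2.79 and 2.75 for Gm20045. The smallest of these ratios was 1.44, for Gm26690 in batch 2 without inhibitors, where 1 library stood on each side. For Gas7 the ratio was 4.13 in batch 1 and 1.39 in batch 2, and the digested mean was the higher one in batch 1 with inhibitors (4.31 against 2.38 CPM) and in batch 2 without them (8.06 against 7.77 CPM), again with 1 library on each side.

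The genes beside the 6 loci that are given here were not called between the methods, and their levels are normalized by TMM. The use of strand in counting is not given in the sources used here, so the count of Gm26690 is uncertain in that respect. Pycard, the inflammasome adaptor beside Gm26690, was at 490 CPM in Dounce and 488 CPM in digested libraries. Supt4a, a transcription elongation factor 11953 bases before Mir142hg, was at 152 and 167 CPM, and no UMI of Tspoap1, the next gene after it, was seen. Dedd and Ufc1, the nearest genes to Gm20045, were at 57.7 and 58.9 CPM in Dounce and at 56.3 and 59.2 CPM in digested libraries.

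Prss36, the nearest gene before Gm26690, is of like level and was at 7.13 CPM in Dounce and 9.62 CPM in digested libraries. Hnrnpf, a splicing regulator beside Fxyd4, was at 507 and 512 CPM, and Rasgef1a on its other side had 7 UMIs in all. No UMI was seen of Gm42530 or Epgn, beside Mthfd2l, of Myh13 or Rcvrn, beside Gas7, or of Gm12301 and Glp2r, which overlap Gas7 on the opposite strand. The miRNA genes Mir142, Mir142b and Gm25535, which overlap Mir142hg or Fxyd4, were not among the genes listed.

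The genes whose pattern over the 12 libraries was most like each transcript were found by Pearson's r of log2(CPM + 1) over the 9882 tested genes. The libraries fall into 2 methods, so these values largely state that the same libraries are low. For Mir142hg they were A630072M18Rik (r 0.93), Gm47731 (0.93) and Amn1 (0.92), and for Gm20045 Bcdin3d (0.94), Irgm1 (0.92) and Gm17259 (0.91). Gm26690 was most like Fxyd4 (0.94), A930033H14Rik (0.93) and Rmi2 (0.91), Mthfd2l most like Fxyd4 (0.92), Fiz1 (0.89) and Gm20045 (0.88), and Fxyd4 most like Gm26690, A930033H14Rik and Mthfd2l. Gas7 was most like Ifi211 (0.93), F13a1 (0.91) and Lyz2 (0.90), and its r with the other 5 transcripts was 0.31 to 0.62, while theirs with each other was 0.78 to 0.94. F13a1 encodes a subunit of coagulation factor XIII and is a border macrophage marker used for the clusters, and Lyz2 encodes lysozyme.

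No relative of the coding genes was called between the methods, where 0.202% of all genes were called lower without and 0.192% with inhibitors. Of 27 folate one-carbon genes 21 could be tested, with a median log2 fold change of -0.01 without and 0.12 with inhibitors, against 0.00 for all genes in both. Its paralog Mthfd2 differed by 0.07 ± 0.21 (log2 ± SE) and 0.21 ± 0.19, Mthfd1 by -0.41 ± 0.21 and 0.22 ± 0.19 and Mthfd1l by 0.18 ± 0.39 and -0.26 ± 0.34. Of 13 FXYD and sodium-potassium pump genes 4 were tested, with medians of -0.43 and -0.44. Fxyd5 differed by -0.53 ± 0.50 and -0.67 ± 0.54, and the pump subunit Atp1b3 by 0.11 ± 0.10 and -0.04 ± 0.09.

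Of 24 F-BAR genes 16 were tested, none was called, and the medians were -0.01 and 0.02. The most abundant were Arhgap45 (0.04 ± 0.09 and 0.00 ± 0.09) and Srgap2 (-0.11 ± 0.09 and 0.04 ± 0.09). Of 19 miRNA host genes 3 were tested. Besides Mir142hg, Mir17hg differed by -0.17 ± 0.48 and -0.90 ± 0.43 and Ftx by 0.06 ± 0.40 and 0.32 ± 0.36. None of the genes of these 4 lists was called between libraries with and without inhibitors within a method.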

How the data were processed

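The deposited values are UMI counts per gene and cell, which the authors made from 10x Genomics 3' libraries with Cell Ranger 3.0.0 (mm10, GRCm38), 1 matrix per animal and without normalization. UMIs remove PCR copies, and intervals cover counting error only. Barcodes with fewer than 500 genes, fewer than 1000 UMIs or over 10% mitochondrial UMIs were dropped, which left 18830 of 28426. A rule on marker genes of other tissue cells (at least 3 genes and 5 UMIs) removed 4 of these (0.0212%), which shows that it did not work as a doublet caller, and doublets were otherwise left in. Cells were clustered by the Leiden method (scanpy 1.11.5, leidenalg 0.10.2, resolution 1, 20 neighbors, 30 principal components, 2000 variable genes) without the 6 genes, the study's activation genes, and mitochondrial, ribosomal and histone genes, Malat1 and Gm42418. Names came from marker lists and can differ from the study's, and the Ngp-led cluster lost its name after its leading genes were seen.

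UMIs of kept cells were summed per library and tested with edgeR 4.0.16 (TMM, filterByExpr, robust quasi-likelihood fit over 12 libraries with a mean per group, Benjamini-Hochberg over 9882 genes), where called means an adjusted p under 0.05 and an absolute log2 fold change over 0.58. DESeq2 1.42.0 was an alternative. The edgeR step was tested on simulated counts. Depth and identity were compared by exact sign-flip permutation of library differences (4096 sign patterns). Shares have exact Clopper-Pearson and pooled levels exact Poisson intervals at 95%. Of the genes listed, 31011 matched the GENCODE annotation.

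The members and the gene lists were chosen with earlier results of these data known. Besides the members, the text names genes that overlap or flank them, the 3 genes most like each, and list genes that were called, or else the 2 of highest level, except that some genes are not reported here. Named after their values were seen were Mthfd2, Mthfd1, Mthfd1l, Fxyd5, Atp1b3, Mir17hg and Ftx and the leading genes of clusters. So were the markers Stab1, Mrc1, F13a1, Slc1a3 and Aldoc.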

Additional observations from a re-analysis of the deposited data

How the results depend on the processing

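No paired analysis was possible because the groups compared share fewer than 2 replicate numbers. For all genes, the count called between ENZ-NONE and DNC-NONE was 46, and 103 with no low-count filter, 30 with cells thinned to 1000 UMIs and 29 to 67 without single libraries. Between ENZ-INHIB and DNC-INHIB it was 20, and 10 with DESeq2, 67 with no filter, 36 with batch as a covariate, 11 with thinning, 33 with all deposited barcodes and 5 to 36 without single libraries. Between ENZ-NONE and ENZ-INHIB it was 29, 60 with no filter and 14 to 39 without single libraries. Between DNC-NONE and DNC-INHIB it was 0, 1 with DESeq2, with batch or in microglia-like cells only, 19 with no filter and 0 to 3 without single libraries. For the interaction it was 6, 17 with DESeq2, 16 with no filter, 10 with batch, 17 without robust estimation (chosen after seeing the data) and 4 to 10 without single libraries. No member changed direction between the methods under the alternatives in which it could be fitted (Gas7 could not with thinning or in microglia-like cells). The members were chosen for this direction in the same libraries, so this is a description only and no further evidence. Signs turned for small inhibitor differences (log2): Mir142hg between ENZ-NONE and ENZ-INHIB gave -0.36 with thinning, -0.26 with all barcodes and -1.20 to 0.60 without single libraries, and Gas7 there -0.066 to 0.87. Between DNC-NONE and DNC-INHIB Gm26690 gave -0.024 with thinning and -0.091 to 0.28 without single libraries, and Fxyd4 -0.049 with thinning, -0.027 in microglia-like cells, -0.058 with the highest Scrublet scores removed and -0.29 to 0.19 without single libraries. In the interaction Mir142hg gave -0.16 with thinning and -0.75 to 1.05 without single libraries, Gm20045 -0.38 to 0.092, and Fxyd4 -0.039 with all barcodes. Shallower minus deeper cells (CPM), with all barcodes, gave 4.26 for Mir142hg and 3.50 for Mthfd2l, which then passed (exact permutation p 0.0146 and 0.0190), and 1.90 for Gm26690 and -4.06 for Gas7, which then did not (exact permutation p 0.0605 and 0.0693). In microglia-like cells Gm26690 gave 1.87 and Gas7 -0.168. Without single libraries the depth difference was 4.01 to 6.60 for Gm20045, 1.55 to 2.55 for Gm26690, 1.57 to 3.02 for Mthfd2l and -8.13 to -5.09 for Gas7. Border/granule minus microglia-like values were -10.9 to -5.32 for Gm20045, -5.88 to -2.99 for Gm26690, 4.15 to 7.81 for Mthfd2l and -3.54 to -0.627 for Fxyd4. With border macrophage-like cells only (chosen after seeing the data) the difference was 11.4 for Mir142hg, which then did not pass (exact permutation p 0.0640). For Fxyd4 it was -5.12, which then passed (exact permutation p 0.000488). These cells held 0 UMIs of Fxyd4, so this p cannot show a lower level. Thinning to 500 UMIs lowered the mean share of every transcript, and then only that of Gm20045 did not overlap between the methods. The cause of these shifts was not tested. Depth limits every value, with 1 to 82 UMIs of a transcript per library.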

Other observations

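Long non-coding RNAs other than the members also leaned to lower values after digestion. Of 160 long intergenic non-coding RNAs tested, members left out, 97 (60.6%) had a log2 fold change below 0 in ENZ-NONE against DNC-NONE and 110 (68.8%) in ENZ-INHIB against DNC-INHIB, with medians of -0.13 and -0.21. Of 114 antisense RNAs 84 (73.7%) and 82 (71.9%) were below 0, with medians of -0.33 and -0.24. Most genes tested were protein-coding (9586 of 9882), and the scaling by TMM sets their values around 0. Of protein-coding genes 49.0% and 48.5% were below 0. Long intergenic RNAs were called lower in 1 and 2 cases (0.625% and 1.25%), and antisense RNAs in 1 and 1 (0.877% each). Of all genes tested 0.202% and 0.192% were called lower. These classes were examined after earlier results were known, and the difference between them was not tested.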
